A study of Mus musculus with 2 samples.

Results

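The proteasome genes were followed in mouse flexor tendon cells under mechanical shear. Genes were taken by symbol (Psma to Psmg followed by a number) from probes that the platform annotation gives exactly 1 symbol, which matched 45 of 10843 named genes. Of these, Psmc3ip, a recombination factor, and Psme3ip1, a binding partner of Psme3, carry the name but are not proteasome subunits, so 43 genes with 122 probes make up the family described here. RefSeq (GRCm38.p6) lists 49 protein-coding genes of this kind. The other 6, Psma8, Psmc6, Psmd13, Psme2b, Psme4 and Psmf1, had no probe of their own and were not analysed here.

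The sheared groups were tenocytes, the resident fibroblasts of tendon, after 12 h at 50 rpm and pooled cells after 6 h. Their controls were tenocytes at 12 h and pooled cells at 6 h. Sheared RNA carried Cy5 and control RNA Cy3 on 1 spotted 2-colour array per time point, with no dye swap. Strain, age, passage and culture surface were not given in the labels used here, and neither was the shear rate at 6 h. Values are log2 ratios, likely of sheared over control, centred on the median of all spots of the array (-0.48 at 12 h and -0.32 at 6 h before centring), and a gene is the median of its probes. Base 2 is assumed, and if the ratio ran control over sheared, every sign would turn. With 1 array per time point nothing could be tested between conditions, so higher and lower describe these arrays alone, and 2 arrays set the precision. The error used here within an array is the spread between probes of a gene. Its pooled SD was 0.57 at 12 h and 0.53 at 6 h over the proteasome genes with 2 or more probes, against 0.86 and 0.74 over all such genes. Spots of 1 accession spread more, with a pooled SD over the array of 0.997 at 12 h and 0.90 at 6 h, so the family SD may understate the error. Ratios carry no expression level, so the identity of the cells could not be checked from marker levels; of 8 tendon markers 5 had a value, and Scx, Mkx and Tnmd were not among them.

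The proteasome degrades proteins marked with ubiquitin. Its barrel-shaped core is built of outer alpha rings, which gate the entrance, and inner beta rings, which hold the proteolytic sites. The cap has a base with a ring of ATPases that unfold and feed in the substrate, and a lid that removes the ubiquitin chain. Activators of the Psme class can bind the core in place of the cap, and Psmg chaperones help to build the core. In many cells, interferon induces alternative catalytic subunits that replace the constitutive ones during assembly. When proteasome activity falls short, the transcription factor Nfe2l1 is known to raise the genes of the subunits together.

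Upstream sequences are shown for 4 genes that mark the range of the family: Psmd8, a lid subunit with the highest ratio at 12 h, Psmb5, a constitutive catalytic subunit, Psmb8, its inducible counterpart, and Psmd1, a scaffold subunit of the base with the lowest ratio among the cap genes on both arrays. Each is the 250 bases before the RefSeq gene start in GRCm38.p6, and none overlaps another annotated gene. They lie at chr7:29180674-29180923 on the minus strand for Psmd8, chr14:54617996-54618245 on the minus strand for Psmb5, chr17:34197945-34198194 on the plus strand for Psmb8, and chr1:86064369-86064618 on the plus strand for Psmd1. Capitals mark every match, on either strand, to 1 of 7 motifs: the antioxidant response element core TGACNNNGC, the CCAAT box (CCAAT), an ETS site (CCGGAAG), the GC box (GGGCGG), an interferon response element core, a heat shock element and the TATA box (TATAAA). Each motif was searched as fixed letters on both strands.
Psmd8: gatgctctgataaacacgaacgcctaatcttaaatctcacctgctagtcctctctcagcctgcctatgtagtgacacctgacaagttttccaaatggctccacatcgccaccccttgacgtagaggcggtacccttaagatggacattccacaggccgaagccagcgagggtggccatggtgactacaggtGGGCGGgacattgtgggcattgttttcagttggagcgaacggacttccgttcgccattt
Psmb5: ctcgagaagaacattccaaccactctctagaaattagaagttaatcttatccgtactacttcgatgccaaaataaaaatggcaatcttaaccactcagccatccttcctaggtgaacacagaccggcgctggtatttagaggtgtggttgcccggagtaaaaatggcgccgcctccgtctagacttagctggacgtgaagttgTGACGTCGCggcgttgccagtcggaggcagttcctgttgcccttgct
Psmb8: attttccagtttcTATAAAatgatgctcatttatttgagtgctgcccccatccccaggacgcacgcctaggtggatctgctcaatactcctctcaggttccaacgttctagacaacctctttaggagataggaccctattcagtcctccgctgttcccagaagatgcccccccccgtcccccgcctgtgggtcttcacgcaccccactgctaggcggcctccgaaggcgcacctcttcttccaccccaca
Psmd1: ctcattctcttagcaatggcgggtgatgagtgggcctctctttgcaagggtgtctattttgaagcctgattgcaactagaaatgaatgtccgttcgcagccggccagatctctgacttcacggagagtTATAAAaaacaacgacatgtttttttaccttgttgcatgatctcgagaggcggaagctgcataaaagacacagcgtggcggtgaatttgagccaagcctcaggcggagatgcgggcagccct
The Psmb5 window holds an antioxidant response element core, TGACGTCGC, that begins at -47 relative to the start. In the Psmd8 window the only match is a GC box at -59. The Psmb8 and Psmd1 windows hold only TATAAA, at -237 and -122, both far from the usual place of a TATA box.

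As a family, the proteasome genes read higher in the sheared cells on both arrays. The median of the 43 genes was 1.33 at 12 h, or 2.51-fold (quartiles 0.74 and 1.56), against -0.14 over 10731 named genes of that array. At 6 h it was 0.79, or 1.72-fold (quartiles 0.60 and 1.07), against -0.11 over 10346 named genes. At least 1.5-fold higher, the size used here for counts, were 33 of 43 genes at 12 h and 32 of 43 at 6 h, while 24.4% and 18.2% of all named genes were. A 2-fold higher value was reached by 28 genes at 12 h (14.5% of all named genes) and 16 genes at 6 h (6.20%). Only Psmb11 was at least 1.5-fold lower, beside 33.1% of all named genes on the 12 h array and 31.3% on the 6 h array. It was so on both, as were 20.5% of the genes measured on both. None was 2-fold lower, while 20.5% of all named genes at 12 h and 18.8% at 6 h were. On both arrays together, 29 genes were at least 1.5-fold higher, against 13.8% of the genes measured on both. Past that size at 12 h alone were Psmb10, Psmd10, Psme2 and Psmg3, and at 6 h alone Psmb9, Psmd11 and Psmg4. The 7 genes under it on both arrays were Psmb8, Psmb11, Psmd1, Psmd2, Psmd14, Psmg1 and Psmg2. RNA came from whole cultures, so a shift in the mix of cells and a change in RNA per cell cannot be told apart. Sheared RNA was in Cy5 on both arrays, so a dye effect cannot be told apart from shear either, and it could recur on both.

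The plot of every probe shows where the classes lie. Most single probes lay on the same side as the gene medians: 110 of 122 proteasome probes (90.2%) lay above 0 at 12 h and 104 of 119 (87.4%) at 6 h, against 49.8% and 51.0% of the other named probes. Both of the large clone sets on the array, told apart by accession prefix, gave the same picture, with medians of 1.46 and 1.35 over 64 and 46 probes at 12 h and of 0.86 and 0.98 over 62 and 45 probes at 6 h.

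**Figure D1:**
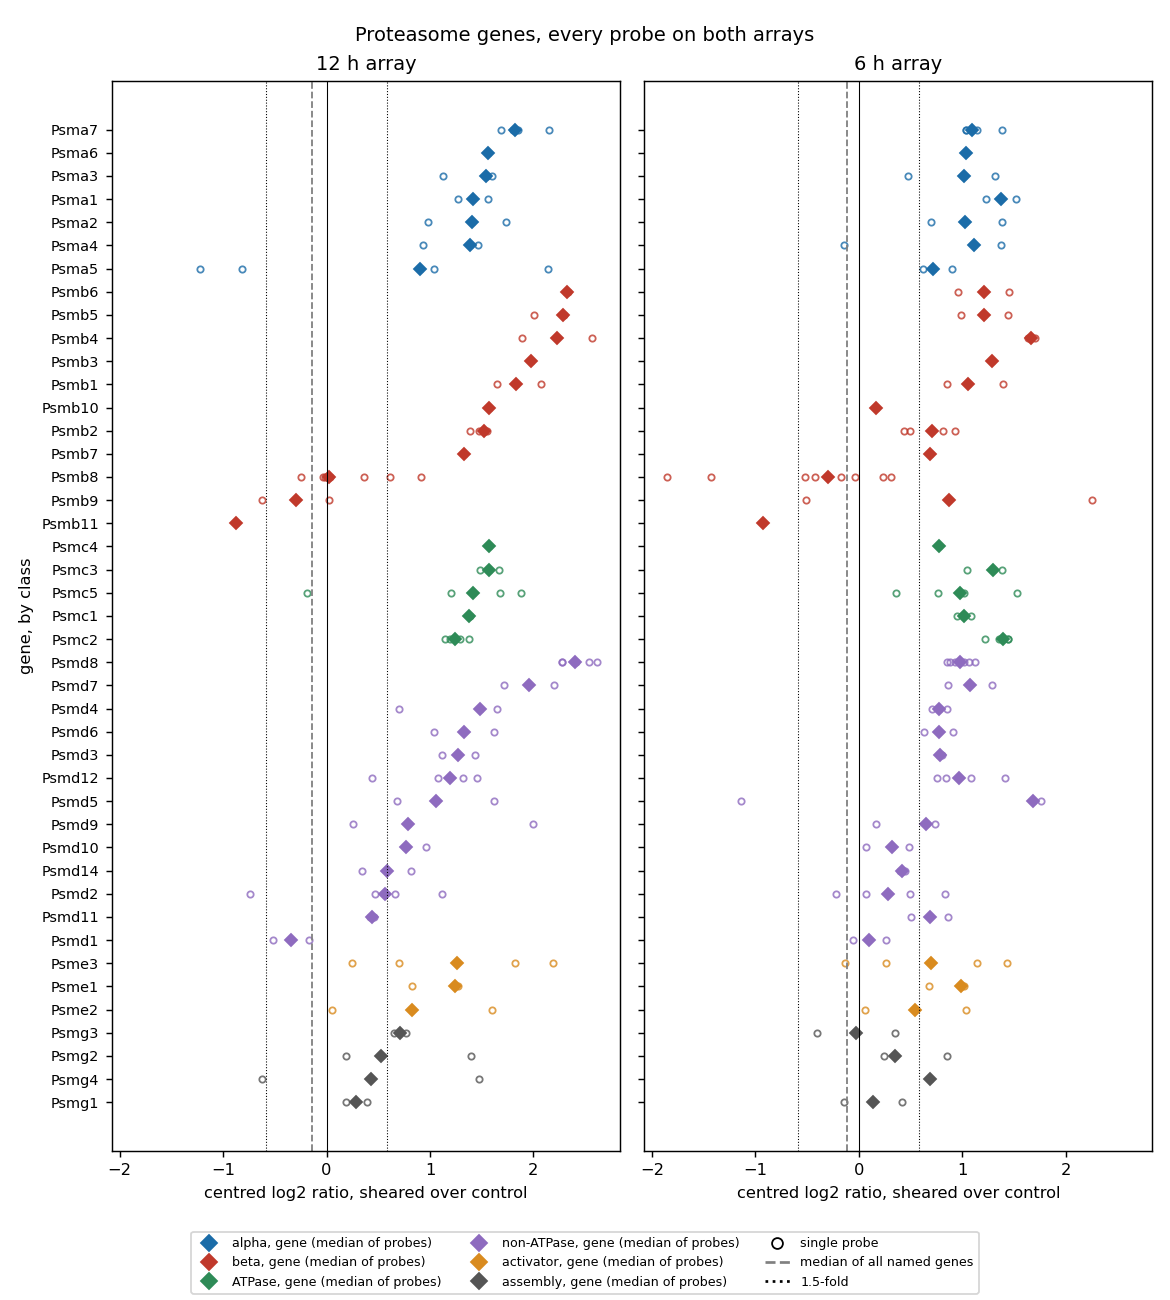
Centred log2 ratio, likely sheared over control, of every probe (open circles) and gene (diamonds, median of probes) of the 43 proteasome genes on the 12 h array (left) and the 6 h array (right), sorted by class and 12 h value. The dashed line is the median of all named genes and the dotted lines mark 1.5-fold. Alpha and ATPase genes all lie right of the 1.5-fold line on both arrays, and Psmb8, Psmb9, Psmb11 and Psmd1 lie near or left of 0 at 12 h.

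The alpha ring was even. All 7 alpha genes were at least 1.5-fold higher on both arrays, beside 13.8% of all genes measured on both. Their medians were 1.42 at 12 h and 1.04 at 6 h. The SD between the 7 genes was 0.28 at 12 h and 0.19 at 6 h, below the pooled probe SD of the proteasome genes, 0.57 and 0.53. Psma7 was highest at 12 h, with 1.82 (probe SD 0.20, 4 probes), and stood at 1.09 at 6 h (probe SD 0.17). Its 4 probes read 1.69, 1.80, 1.85 and 2.15 at 12 h, so none came near 0. Psma1 was highest at 6 h with 1.38 and had 1.42 at 12 h, and its 2 probes lay between 1.28 and 1.57 at 12 h and between 1.23 and 1.53 at 6 h. Psma6 (1.56 at 12 h, 1.04 at 6 h, 1 probe), Psma3 (1.54 and 1.02 over 4 probes), Psma2 (1.40 and 1.03 over 3 probes) and Psma4 (1.38 and 1.12 over 3 probes) filled the middle. A single Psma4 probe lay below 0 at 6 h, at -0.14, and it was also the lowest of the 3 at 12 h, at 0.93.

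Psma5 was the lowest alpha gene and the only one whose probes disagreed in sign at 12 h. It stood at 0.91 at 12 h (probe SD 1.40, 5 probes) and 0.72 at 6 h (probe SD 0.14, 3 probes). At 12 h its probes read -1.23, -0.82, 0.91, 1.04 and 2.14. The 2 negative values came from spots of 1 accession, and neither spot had a value at 6 h. RefSeq also lists a Psma5 pseudogene. A cDNA probe might not tell its transcripts from those of Psma5, but no sequences were compared.

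The beta class was the most divided. Its median over 11 genes was 1.57 at 12 h and 0.87 at 6 h, but the range ran from -0.87 to 2.32 at 12 h and from -0.93 to 1.67 at 6 h. The 7 subunits of the standard ring, Psmb1 to Psmb7, were all at least 1.5-fold higher on both arrays, beside 13.8% of all genes measured on both. The median of these 7 was 1.98 at 12 h, or 3.93-fold, and 1.21 at 6 h, or 2.31-fold. The lowest 3 values of the beta class were those of Psmb11, Psmb9 and Psmb8 at 12 h and of Psmb11, Psmb8 and Psmb10 at 6 h. Among the standard subunits without a proteolytic site, Psmb4 stood at 2.23 at 12 h (probes 1.89 and 2.57) and at 1.67 at 6 h (probes 1.63 and 1.70), the highest beta value of that array. Psmb3 (1.98 at 12 h and 1.29 at 6 h, 1 probe), Psmb1 (1.83 and 1.06 over 3 probes) and Psmb2 (1.52 and 0.71 over 5 probes) were lower. The 5 Psmb2 probes lay close together at 12 h, from 1.39 to 1.55.

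The inducible catalytic subunits are given beside the constitutive ones they replace. Psmb8 lay below Psmb5 on both arrays and Psmb9 below Psmb6 at 12 h, while Psmb10 and Psmb7 were not set apart. Psmb8 replaces Psmb5, which cuts after hydrophobic residues, Psmb9 replaces Psmb6, which cuts after acidic residues, and Psmb10 replaces Psmb7, which cuts after basic residues. Psmb8 stood at 0.02 at 12 h (probe SD 0.39) and -0.30 at 6 h (probe SD 0.78), with 8 probes from -0.24 to 0.92 at 12 h and from -1.85 to 0.31 at 6 h. Psmb5 stood at 2.28 at 12 h, with probes of 2.003, 2.28 and 2.30, and at 1.21 at 6 h, with probes of 0.99, 1.21 and 1.44. Of the 8 Psmb8 probes, 2 are spots of 1 accession. No Psmb8 probe reached any Psmb5 probe on either array. The difference, Psmb8 minus Psmb5, was -2.26 at 12 h and -1.51 at 6 h, larger than the probe SD of either gene, though without a replicate array.

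Psmb9 had 2 probes that did not agree. They read -0.62 and 0.02 at 12 h and 2.25 and -0.51 at 6 h, which gave -0.30 and 0.87. The probe that was lowest at 12 h was thus the highest at 6 h. Psmb6 stood at 2.32 at 12 h, with probes of 2.32 and 2.33, and at 1.21 at 6 h, with probes of 0.96 and 1.45. Psmb9 minus Psmb6 was -2.62 at 12 h and -0.34 at 6 h. The 6 h difference lay within the probe SD of Psmb9, 1.95, and was -1.42 when a probe annotated to both Tap1 and Psmb9 was kept.

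The last pair did not follow the others. Psmb10 stood at 1.57 at 12 h and 0.17 at 6 h, and Psmb7 at 1.33 and 0.69, each on 1 probe. Psmb10 minus Psmb7 was therefore 0.24 at 12 h and -0.52 at 6 h. Both lie under the pooled probe SD over all genes of their array, so neither value sets the 2 genes apart. Psmb11, the subunit of thymic cortical epithelium, stood at -0.87 at 12 h and -0.93 at 6 h on 1 probe. Its neighbour on chromosome 14 with no protein-coding gene between is Psmb5, at 2.28 and 1.21. RefSeq lists pseudogenes of Psmb5, Psmb6 and Psmb7. A cDNA probe might not tell their transcripts from those of the genes, but no sequences were compared.

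**Figure D2:**
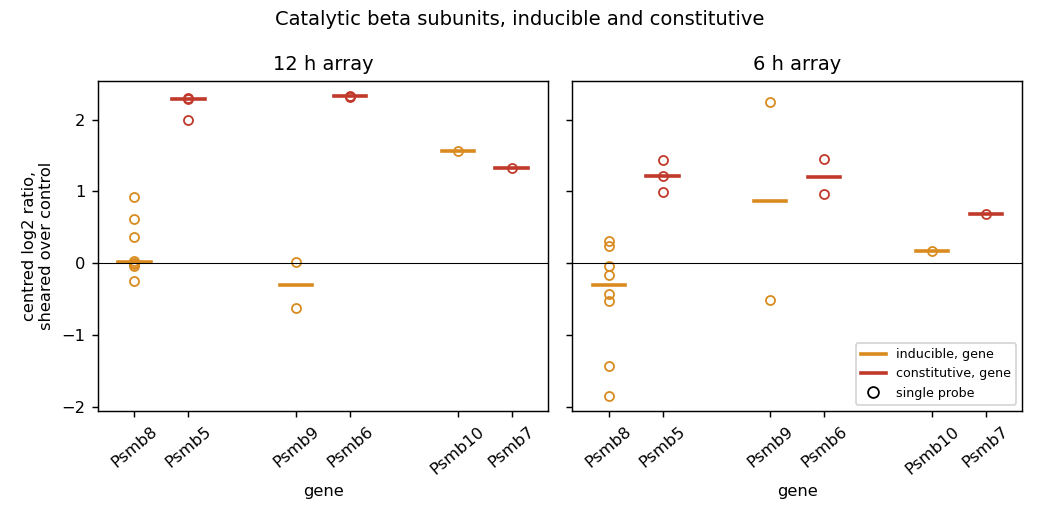
Centred log2 ratios, likely sheared over control, of the inducible (orange) and constitutive (red) catalytic beta subunits, in pairs, on the 12 h array (left) and the 6 h array (right). Circles are single probes and bars the gene values. Psmb8 probes lie below all Psmb5 probes on both arrays, Psmb9 lies apart from Psmb6 at 12 h with 1 of its 2 probes above Psmb6 at 6 h, and Psmb10 and Psmb7 have 1 probe each.

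The genes that share a locus or an inducer with Psmb8 and Psmb9 were mixed. Psmb8 and Psmb9 lie on chromosome 17 on either side of Tap1, whose only probe also carries the Psmb9 symbol. Of 11 antigen processing and MHC class I genes 8 had a value at 12 h and 7 at 6 h. Their median was 0.93 at 12 h, where 5 passed 1.5-fold upward and 1, Tap2, downward. At 6 h it was 0.62, and 4 passed upward and none downward. The higher shares were 62.5% at 12 h and 57.1% at 6 h, beside 24.4% and 18.2% of all named genes. B2m, the light chain of MHC class I, stood at 1.51 at 12 h (probe SD 0.27) and 1.03 at 6 h (probe SD 0.13), and the chaperone Canx at -0.46 and -0.14. The interferon response list had medians of -0.22 at 12 h and 0.32 at 6 h over 13 genes, with 4 higher and 2 lower at 12 h and 4 higher and none lower at 6 h. The higher share was 30.8% on both arrays, beside 24.4% of all named genes at 12 h and 18.2% at 6 h, and the shares of all named genes that were lower were 33.1% and 31.3%. The 12 h median was 0.20 with 2 or more probes per gene, and the 6 h median was -0.004 without centring. Ifitm1, an interferon-induced membrane protein, stood at 1.70 and 1.38, and the guanylate-binding protein Gbp2 at -0.52 and -0.31, so the list held values on both sides of 0.

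The ATPase ring was the narrowest class at 12 h. Its 5 measured genes lay between 1.24 and 1.57 at 12 h (median 1.41) and between 0.78 and 1.40 at 6 h (median 1.02). All 5 were at least 1.5-fold higher on both arrays, beside 13.8% of all genes measured on both. Psmc4 was the highest at 12 h with 1.57 and the lowest at 6 h with 0.78, on 1 probe. Psmc2 went the other way in rank. It was the lowest at 12 h, with 1.24 and probes from 1.15 to 1.37, and the highest at 6 h, with 1.40 and probes from 1.22 to 1.45. Psmc3 stood at 1.57 at 12 h (probe SD 0.09) and 1.30 at 6 h (probe SD 0.18), and Psmc1 at 1.38 (probe SD 0.008) and 1.02 (probe SD 0.095). Psmc5 stood at 1.41 and 0.98 over 5 probes, of which 1 read -0.19 at 12 h and 0.36 at 6 h and the other 4 lay from 1.20 to 1.88 and from 0.76 to 1.53.

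The non-ATPase genes of the cap ranged widely, from -0.34 to 2.40 at 12 h and from 0.10 to 1.69 at 6 h. Their median over 13 genes was 1.06 at 12 h and 0.77 at 6 h. On each array 9 of 13 were at least 1.5-fold higher, beside 24.4% of all named genes at 12 h and 18.2% at 6 h. Psmd8, a lid subunit, had the highest ratio of the family at 12 h, 2.40 (5.29-fold, probe SD 0.14), above 99.2% of all named genes. Its 6 probes read 2.28, 2.28, 2.39, 2.42, 2.54 and 2.62 at 12 h, and from 0.86 to 1.12 at 6 h, where the gene stood at 0.98 (probe SD 0.10). The ranges on the 2 arrays did not overlap. The lid subunit Psmd7, partner of the deubiquitinase Psmd14, stood at 1.96 at 12 h (probes 1.72 and 2.20) and 1.08 at 6 h (probes 0.87 and 1.29).

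At the other end stood Psmd1. It had -0.34 at 12 h, with probes of -0.52 and -0.17, and 0.10 at 6 h, with probes of -0.06 and 0.27. Psmd2, the other large scaffold of the base, stood at 0.56 at 12 h (probe SD 0.79) and 0.28 at 6 h (probe SD 0.47), with 4 probes from -0.74 to 1.12 and from -0.22 to 0.84. Both scaffolds thus stayed under 1.5-fold on both arrays. The deubiquitinase Psmd14 stood at 0.58 at 12 h, just under the 0.585 that marks 1.5-fold, and at 0.42 at 6 h. The lid subunit Psmd11 stood at 0.44 at 12 h (probes 0.42 and 0.46) and 0.69 at 6 h (probes 0.51 and 0.87). Between these ends lay the ubiquitin receptor Psmd4 (1.48 at 12 h and 0.77 at 6 h) and the lid subunits Psmd6 (1.33 and 0.77), Psmd3 (1.28 and 0.79) and Psmd12 (1.20 and 0.97).

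Among the Psmd genes, 3 are not subunits but chaperones that help to build the base, and they are counted with the class by name. Psmd5 stood at 1.06 at 12 h and 1.69 at 6 h, the highest ratio of the family on the 6 h array. Its 3 probes read 0.69, 1.06 and 1.62 at 12 h and -1.14, 1.69 and 1.76 at 6 h, with an SD of 1.66 at 6 h. Psmd9 stood at 0.79 (probe SD 0.89) and 0.65 (probe SD 0.31) and Psmd10, also called gankyrin, at 0.77 (probe SD 0.12) and 0.32 (probe SD 0.21). The low probe of Psmd5 at 6 h is the same that was lowest at 12 h.

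Set against each other, core and cap overlapped. The median over the 18 alpha and beta genes was 1.53 at 12 h, against 1.26 over the 18 ATPase and non-ATPase genes, a difference of 0.27. At 6 h the core had 1.03 and the cap 0.78, a difference of 0.25. With the subunits of the standard particle alone, 14 in the core and 15 in the cap, the differences were 0.22 and 0.29. With 1 array per time point these differences have no error of their own and were not tested. The cap as counted lacks Psmc6 and Psmd13, which had no probe of their own, and any subunit outside the Psm names. Of the latter, the lid subunit Sem1 stood at 1.71 at 12 h (probe SD 2.25) and 0.93 at 6 h. The standard core genes ran from 0.91 to 2.32 at 12 h and the cap genes from -0.34 to 2.40, so that the core lay inside the range of the cap. At 6 h the core ran from 0.69 to 1.67 and the cap from 0.10 to 1.40, so that the ranges overlapped and the core reached higher. At least 1.5-fold higher were 14 of 14 standard core genes on both arrays, and 11 of 15 cap genes at 12 h and 12 of 15 at 6 h.

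Of the 3 activators all were at least 1.5-fold higher at 12 h and 2 at 6 h, beside 24.4% and 18.2% of all named genes. The probes of Psme2 and Psme3 disagreed. Psme1 and Psme2 form the interferon-induced activator ring and lie close together on chromosome 14 with 1 protein-coding gene between. Psme1 stood at 1.24 at 12 h (probe SD 0.25, 3 probes) and 0.99 at 6 h (probe SD 0.19), with probes from 0.83 to 1.27 at 12 h and from 0.68 to 1.01 at 6 h. Psme2 stood at 0.83 at 12 h (probe SD 1.10) and 0.55 at 6 h (probe SD 0.69), but its 2 spots carry the same accession and read 0.06 and 1.60 at 12 h and 0.06 and 1.04 at 6 h. Psme3, which forms an activator ring in the nucleus, stood at 1.27 (probe SD 0.92) and 0.70 (probe SD 0.73) over 4 probes. It too had a pair of spots of 1 accession, at 0.24 and 2.19 at 12 h and 0.26 and 1.44 at 6 h. For both genes the same spot of the pair was the low one on both arrays. Over the array, 579 accessions on 2 or more spots had a pooled SD of 0.997 at 12 h, and 524 had 0.90 at 6 h, which is above the pooled SD between probes of a gene on the same array. Psme2b, a near-identical copy of Psme2, could add to the Psme2 signal, but this was not examined.

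The chaperones of core assembly had the lowest class median. The 4 Psmg genes had a median of 0.48 at 12 h and 0.25 at 6 h, and without centring these became 0.00 and -0.08, so their direction rests on the centring. Assembly minus core was -1.05 at 12 h and -0.79 at 6 h, a difference that centring does not touch. Psmg3 was the only one at least 1.5-fold higher at 12 h, with 0.71 (probes 0.65 and 0.77), and it stood at -0.03 at 6 h (probes -0.40 and 0.35). Psmg4 was the only one at 6 h, with 0.69 on 1 probe, and had 0.43 at 12 h from probes of -0.62 and 1.48. Of all named genes, 24.4% at 12 h and 18.2% at 6 h were at least 1.5-fold higher. Psmg1 stood at 0.29 at 12 h (probes 0.19 and 0.39) and 0.14 at 6 h (probes -0.14 and 0.42), and Psmg2 at 0.53 (probe SD 0.63) and 0.35 (probe SD 0.33). Pomp, a further factor that helps to close the core and is degraded by it, stood far above them at 1.96 at 12 h (probe SD 0.10, 3 probes) and 1.04 at 6 h (probe SD 0.18).

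Between the arrays the family kept its order in broad terms, with Pearson's r of 0.73 and Spearman's rho of 0.70 across the 43 genes, against 0.66 and 0.74 across 10286 genes. These are descriptions across genes of 2 arrays of 1 probe set. The arrays differ in more than time: the labels give tenocytes at 12 h and pooled cells at 6 h, and no shear rate at 6 h. Time cannot be told apart from the cells, the shear rate or the array in any 12 h minus 6 h difference below. Of the 43 genes, 37 read higher at 12 h than at 6 h, beside 56.6% of all genes. The median difference, 12 h minus 6 h, was 0.38 over the family and 0.12 over all genes. The 12 h array was wider, with a median absolute deviation over all spots of 0.80 against 0.64 at 6 h. When both arrays were brought to 1 deviation, the median difference was 0.18 over the family and 0.12 over all genes, and 32 of 43 genes read higher at 12 h, beside 57.7% of all genes.

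Among the classes the beta genes had the largest median difference, 0.69. Over the 7 standard beta subunits the median difference was 0.78, with 7 of 7 higher at 12 h, and 0.45 on the scaled arrays. Among single genes Psmd8 had the largest difference, 1.43, or 1.05 after scaling. It was followed by Psmb10 at 1.40 on 1 probe, Psmb6 at 1.12 and Psmb5 at 1.07. The alpha genes differed by 0.38 in the median, the ATPases by 0.36, the non-ATPase genes by 0.28, the activators by 0.28 and the Psmg genes by 0.16. After scaling these medians were 0.098 for the alpha genes, 0.088 for the ATPases, 0.18 for the non-ATPase genes, 0.13 for the activators and 0.088 for the Psmg genes. Those of the alpha genes, the ATPases and the Psmg genes lay below the 0.12 of all genes. The 6 genes with a lower ratio at 12 h were Psmb9 (-1.17), Psmd5 (-0.63), Psmd1 (-0.45), Psmg4 (-0.26), Psmd11 (-0.25) and Psmc2 (-0.16). For Psmg4 the sign rests on a probe that read -0.62 at 12 h and had no value at 6 h. Its only probe with a value on both arrays read 1.48 at 12 h and 0.69 at 6 h. Of the 6 genes, Psmb9, Psmd1, Psmd5 and Psmg4 had probes on both sides of 0 on at least 1 array.

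**Figure D3:**
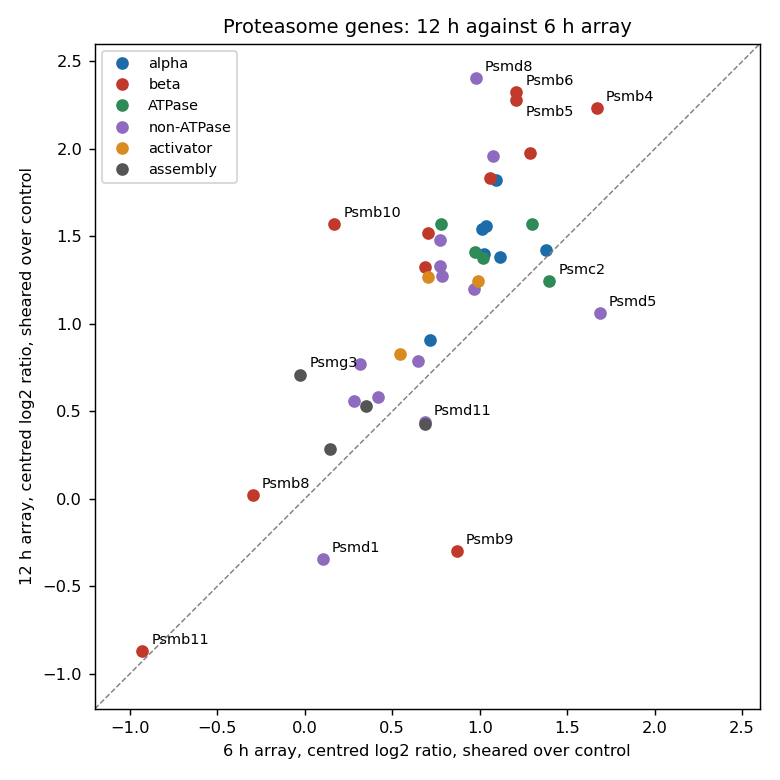
Centred log2 ratio, likely sheared over control, of the 43 proteasome genes on the 12 h array (vertical) against the 6 h array (horizontal), coloured by class. The dashed line marks equal values: 37 genes lie above it, Psmd8 and Psmb10 farthest, and 6 below it, Psmb9 farthest.

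Other large complexes of the cell read higher on the same arrays. Ribosomal proteins had a median of 2.22 at 12 h and 1.17 at 6 h over 67 genes, and respiratory chain and ATP synthase subunits 1.84 and 0.92 over 73 genes, both above the 1.33 and 0.79 of the proteasome. Among those with 2 or more probes, the ribosomal proteins had Rps29 as the highest, at 2.71 at 12 h and 1.28 at 6 h, and Rpl22l1 as the lowest, at 0.22 and 0.97. In the respiratory list they were Uqcrh, a subunit of complex III, at 2.47 and 1.41, and Cox6b2, a testis form of a complex IV subunit, at 0.58 and -0.92 (probe SD 2.17 at 6 h). The TCP-1 ring chaperonin, which folds actin and tubulin, had 1.21 and 0.87 over 8 genes, with 8 higher at 12 h and 7 at 6 h. Its values ran from 0.79 for Cct2 to 1.63 for Cct5 at 12 h. The lid shares protein folds with eIF3 and the COP9 signalosome. The translation initiation factor eIF3 had 1.36 at 12 h and 0.73 at 6 h over 11 genes, with 10 and 8 higher and 1 and 0 lower, and the COP9 signalosome, which removes Nedd8 from cullins, had 1.02 and 0.63 over 10 genes, with 7 and 5 higher and 1 and 0 lower. Of all named genes, 24.4% were higher at 12 h and 18.2% at 6 h, and 33.1% and 31.3% were lower. Within eIF3, Eif3k stood at 2.27 at 12 h and 1.24 at 6 h and the largest subunit, Eif3a, at -0.62 and -0.23 over 11 probes. Within the signalosome Cops9 stood at 2.05 (probe SD 1.74) and 0.85, and Cops2 at 0.08 (probe SD 0.15) and 0.36. The proteasome median thus lay among those of these complexes, and no test sets it apart from them.

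**Figure D4:**
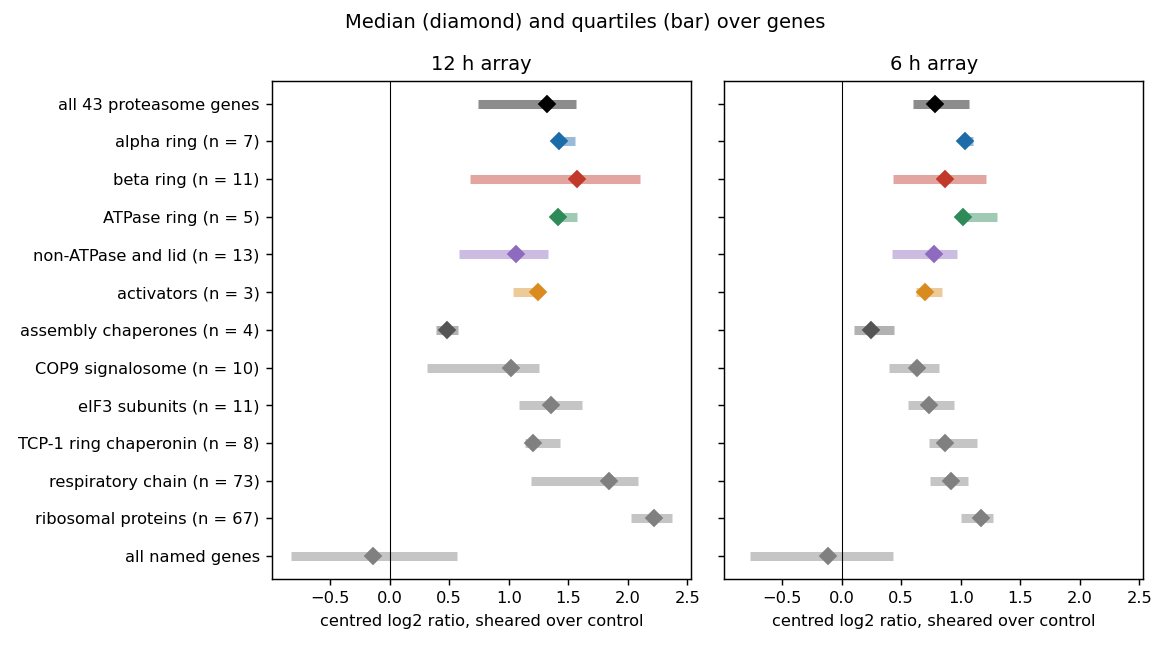
Median (diamond) and quartiles (bar) over genes of the centred log2 ratio, likely sheared over control, for the proteasome, its classes, other complexes and all named genes on the 12 h array (left) and the 6 h array (right). The proteasome medians of 1.33 and 0.79 lie with those of eIF3 and the TCP-1 ring, below ribosomal proteins and far above the medians of all named genes, -0.14 and -0.11.

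The genes that feed or regulate the proteasome had lower medians than the subunits. Receptors, shuttles and deubiquitinases of ubiquitin had a median of 0.08 at 12 h and 0.47 at 6 h over 11 of 16 genes, with 4 higher and 1 lower at 12 h and 2 higher and none lower at 6 h, and the 12 h median was -0.40 without centring. The higher shares were 36.4% at 12 h and 18.2% at 6 h, beside 24.4% and 18.2% of all named genes, of which 33.1% and 31.3% were lower. Sem1, a small lid subunit outside the Psm names, stood at 1.71 at 12 h (probe SD 2.25, 3 probes) and 0.93 at 6 h (probe SD 0.06), and the shuttle Ubqln2 at -0.32 and -0.22. Transcription and assembly factors of the proteasome had 0.31 at 12 h and 0.51 at 6 h over 7 of 8 genes, with 3 higher (42.9%) and none lower on each array, and -0.17 at 12 h without centring. Nfe2l1 itself, the regulator of subunit genes, was the lowest of that list among genes with 2 or more probes, at -0.34 at 12 h (probe SD 0.13, 3 probes) and -0.20 at 6 h (probe SD 0.21). These are ratios of its RNA. Its protein and activity were not measured, and its part in the ratios of the subunits was not tested.

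Ubiquitin, p97 and its cofactors had medians of 0.04 at 12 h and 0.15 at 6 h over 7 of 14 genes, turning to -0.44 and -0.17 without centring, with 2 higher and 2 lower at 12 h and 1 higher and 2 lower at 6 h. The higher shares, 28.6% at 12 h and 14.3% at 6 h, lay near the 24.4% and 18.2% of all named genes, of which 33.1% and 31.3% were lower. The p97 cofactor Nsfl1c stood at 1.26 and 0.71, and the ubiquitin chain ligase Ube4b at -2.52 (probe SD 0.44, 3 probes) and -0.76 (probe SD 0.29). NRF2 targets of the antioxidant response had 0.52 at 12 h and 0.88 at 6 h over 9 of 12 genes, with 3 higher and 1 lower at 12 h and 5 higher and none lower at 6 h. The higher shares were 33.3% at 12 h and 55.6% at 6 h, beside the same 24.4% and 18.2% of all named genes. Among the NRF2 targets with 2 or more probes, Hmox1, which degrades heme, was highest at 2.78 and 4.01, and the quinone reductase Nqo1 lowest at 0.08 and -0.11. The lysosome and autophagy list, the other route of protein breakdown, had 0.76 and 0.64 over 18 genes, with 10 higher (55.6%) and 1 lower on each array. Its protease Ctsl stood at 1.58 and 0.97 and the autophagy enzyme Atg7 at -0.48 and 0.11.

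Marker lists of cell types lay near 0 or rested on few genes. The 5 measured tendon genes had medians of -0.05 at 12 h and 0.11 at 6 h, of which the first was 0.28 with 2 or more probes per gene and the second -0.21 without centring and -0.02 with print blocks centred. The collagen-binding proteoglycan Fmod stood at 0.75 and 0.55 and Col1a1, a chain of type I collagen, at -0.35 and -0.43. Of the 5 tendon genes, 2 were at least 1.5-fold higher at 12 h and none at 6 h, beside 24.4% and 18.2% of all named genes. The 3 measured leukocyte genes had 0.46 and 0.39, and the 12 h median was -1.05 over the gene with 2 or more probes, Lyz2, and -0.02 without centring. The macrophage marker Cd68 stood at 1.70 and 0.58 on 1 probe. The 3 endothelial genes had -0.57 and -0.25, with Kdr at -0.65 and 1.76 (probe SD 2.62 at 6 h) and Pecam1 at -0.57 and -2.03. Their part in the proteasome result was not tested.

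Across the promoters of the family the 7 motifs were counted and set beside all promoters of the table. A promoter was listed for 36 of the 43 genes, 39 windows in all. The antioxidant response element core was in 4 of 39 windows (10.3%), those of Psmb5, Psmb6, Psmd9 and Psmd12, against 10.2% of 32851 windows. The 4 genes had a median ratio of 1.74 at 12 h and 1.09 at 6 h, and the 32 others 1.25 and 0.78. The CCAAT box was in 35.9% of family windows and 33.8% of all. The ETS site was in 28.2% of family windows, among them Psmc1, Psmc2, Psmd2 and Psmd11, and in 6.91% of all, while the genes with it had medians of 1.25 and 0.77 and those without it 1.31 and 0.92. The GC box was in 53.8% and 32.7%, the interferon core in 7.69% and 2.98%, the TATA box in 10.3% and 12.4% and the heat shock element in 0 of 39 windows and 0.47% of all. Matches describe letters in these windows, and the family is not matched with other genes for base composition.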

How the data were processed

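The 2 samples are 2-colour arrays, 1 at 12 h and 1 at 6 h, with 41717 and 39776 of 42624 spots measured. The deposited values are log ratios per spot, taken here as log2 from their range; per the labels the sheared RNA was in Cy5 and the control RNA in Cy3. Scanner, background correction, normalization and spot filters are not given in the sources used here. Intensities were not used, so dim spots could not be filtered and the depth is unknown.

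Each array was centred on its median. Genes come from GEO's platform annotation, in which 21701 probes have 1 symbol, 1124 several and 19799 none, and symbols were brought up to date through RefSeq gene IDs (GRCm38.p6). A gene's value is the median over its single-symbol probes. Python 3.11.15 with pandas 2.3.3, numpy 2.4.6 and matplotlib 3.10.9 was used, and recovery of known shifts was tested on simulated data. With 1 array per time point no test was made. Every gene matched is accounted for. Single probes are given for catalytic subunits and for the highest and lowest gene of each class or array, and each related list is named by its highest and lowest gene by the mean of both arrays, among genes with 2 or more probes where at least 2 genes have them. The genes, classes, lists and motifs were chosen with earlier results of these data known. Alternatives were no centring, the mean of probes, 2 or more probes per gene, genes measured at both times, several-symbol probes kept, arrays of equal median absolute deviation, print blocks of 900 spots centred, a 2-fold threshold and standard subunits only.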

Additional observations from a re-analysis of the deposited data

Results flagged for a closer look

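Psmb8, Psmb9, Psmd1 and Psmg3 had centred ratios of opposite sign on the 2 arrays, and these differences were not tested, since each time point has 1 array. Without centring, Psmb8 turned negative at 12 h and Psmd1 at 6 h, so both were then negative on both arrays. For these genes the opposite sign thus rests on the centring. Psmb8 stood at 0.02 at 12 h and -0.30 at 6 h. Psmb9 stood at -0.30 at 12 h and 0.87 at 6 h, where its 2 probes read 2.25 and -0.51. Psmd1 stood at -0.34 at 12 h and 0.10 at 6 h. Psmg3 stood at 0.71 at 12 h and -0.026 at 6 h. Of these 4 genes, only Psmg3 was past 1.5-fold at 12 h and only Psmb9 at 6 h.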

How the results depend on the processing

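Of 414 recomputed values over 57 results, 404 kept within 1 pooled probe SD of the main value, or within 1.5 times for a count, and 10 moved. Dropping the centring shifts every median by the array median, -0.48 at 12 h and -0.32 at 6 h, which is smaller in size than that SD. No median could therefore count as moved in that setting, even where its sign turned. Differences between genes or classes of 1 array could not change there at all. The count of 404 thus says little about how firm the signs are. Without centring, 20 family genes were at least 1.5-fold higher at 6 h, and 3 at 12 h and 2 at 6 h were lower. At 2-fold, 16 were higher at 6 h, and 0 at 12 h and 0 at 6 h lower. With 2 or more probes per gene, 0 were lower at 12 h and 0 at 6 h, and the leukocyte median at 12 h was -1.05 over 1 gene. With probes of several symbols kept, Psmb9 minus Psmb6 at 6 h was -1.42. The family median ran from 0.85 to 1.33 at 12 h and from 0.46 to 0.92 at 6 h, lowest without centring; there 4 genes at 12 h (Psmb8, Psmd11, Psmg1, Psmg4) and 5 at 6 h (Psmb10, Psmd1, Psmd2, Psmd10, Psmg1) turned negative. No paired analysis was possible because each time point has 1 array. Psmb10 minus Psmb7 could not be recomputed with 2 or more probes, since each has 1. Spot brightness was not used, so what it limits is unknown.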

Other observations

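Probes annotated to a pair of genes lie outside the values above. The spot shared by Sirt3 and Psmd13, a lid subunit, read 1.497 at 12 h and 1.20 at 6 h. The spot shared by Tap1 and Psmb9 read 0.76 at 12 h and -0.22 at 6 h. The genes that carry the name but are no subunits stood at -0.30 at 12 h and -0.43 at 6 h for Psmc3ip on 1 probe, and at 0.41 at 12 h (probe SD 0.88) and 0.80 at 6 h (probe SD 0.71) for Psme3ip1 on 4 probes.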
